A study of Mus musculus with 20 samples.

Results

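The genes described here are the transcription factors CREM, CREB1 and ATF1 and the coactivators that work with them, the CREB-regulated transcription coactivators CRTC1, CRTC2 and CRTC3, CREB-binding protein (CBP, gene *Crebbp*) and p300 (gene *Ep300*), in the liver of mice with and without *Crem*. Members were all probe sets that the array annotation assigns to exactly 1 gene and whose gene is in this group. This gave 8 genes with 1 probe set each (*Crem* 10457205, *Creb1* 10346943, *Atf1* 10426875, *Crtc1* 10579262, *Crtc2* 10493711, *Crtc3* 10565002, *Crebbp* 10437332 and *Ep300* 10425527), of 25689 probe sets with a value. All 8 were brighter on average than the median probe set.

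Whole liver RNA of 20 mice was hybridized to Affymetrix arrays, with 1 mouse on each array. Groups held 5 mice each: wild-type (WT) mice and mice without *Crem* (KO, labelled Crem-/-), taken when the light came on (0 h) or when it went off (12 h). By their labels all were 8 weeks old, untreated, fed freely and of the mixed background 129Pas x C57Bl/J. The KO mice lacked functional *Crem* in every tissue, and the labels do not name the exons that the allele removes.

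CREM, CREB1 and ATF1 are closely related leucine zipper proteins that bind, as homodimers or with each other, to the cyclic AMP response element (CRE). Protein kinase A, raised in the liver by glucagon during fasting, phosphorylates them, and the phosphorylated domain then recruits the acetyltransferases CBP and p300. The CRTC proteins bind the leucine zipper instead. They are kept in the cytoplasm when phosphorylated by salt-inducible kinases and enter the nucleus once calcineurin removes the phosphate. *Crem* can also give rise to short repressors that compete for the same sites, which raises the question whether its paralogs or coactivators shift when it is disrupted.

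The promoters show where such sites are found near these genes. RefSeq windows of 300 bases around the transcription start (GRCm38.p6) were searched for 6 of the 8 genes. *Crem* was left out of the search, and no window was found for *Crtc2*. Both strands were read for the full CRE, TGACGTCA, and for its core, TGACG, outside a full CRE. They were also read for the E-box CACGTG, to which clock factors bind. None of the 6 windows held a full CRE, which 1.79% of all 32851 windows did. *Atf1* alone held a core, found in 19.5% of all windows, and it alone held an E-box, found in 7.15%. Its stretch is given here beside stretches of *Dusp1*, *Pck1* and *Per1*, which are known targets of CREB in liver and whose values are given further on. Capitals mark the full CRE or its core, read as CGTCA where it lies on the opposite strand, and the E-box. A match is a description of the letters and not a binding site.
Atf1, chr15:100227746-100227795, plus strand, 113 to 64 bases before the start: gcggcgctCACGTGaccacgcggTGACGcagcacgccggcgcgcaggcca
Dusp1, chr17:26508587-26508636, minus strand, 164 to 115 bases before the start: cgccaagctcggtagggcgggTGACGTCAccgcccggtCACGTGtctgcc
Pck1, chr2:173152960-173153009, plus strand, 113 to 64 bases before the start: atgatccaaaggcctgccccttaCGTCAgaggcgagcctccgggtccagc
Per1, chr11:69098699-69098729, plus strand, 250 to 220 bases before the start: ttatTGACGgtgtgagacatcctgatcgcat
Of 18 listed cyclic AMP targets of liver, 16 were searched, and 11 of these held a CRE or its core, *Dusp1* being the only one with the full CRE. Targets on the chromosome that carries *Crem* were left out of the search.

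Expression values are log2 values normalized by RMA, so a difference of 1 is a doubling, and a value of one probe set says nothing against that of another. Array medians lay between 7.18 and 7.24 at 0 h and between 7.07 and 7.17 at 12 h. Any pair of arrays correlated at 0.969 to 0.994, and no pair held identical values. Hepatocyte markers (9 genes) averaged 13.57 to 13.72 in every group, and 4 neutrophil markers averaged 5.46 to 6.02 and 4 lymphocyte markers 5.70 to 6.16. The labels place the arrays in 5 batches. WT and KO livers of 0 h were spread over batches 1 to 4, and every liver of 12 h was in batch 5, so that a difference between times cannot be told apart from a difference between batches. The identity of KO mouse 1 at 0 h could not be settled. A list of testis samples in the study's supplement carries the same number for a WT mouse that had not reached puberty. That list numbers such mice serially from 1, so the number need not be that of the same animal. Among the adults of that list, the numbers of all other 0 h livers occur with the same genotypes, and number 1 does not occur. The array of KO mouse 1 had a *Crem* value of 8.17, inside the WT range and near its lowest value of 8.11. It was kept under its label, as an adult KO mouse. Some values that turn on it are also given without it, while the permutation tests and the relations between genes are given only with it.

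*Crem* signal was lower in KO livers at both times, by 0.42 on average. At 0 h, the WT mice had *Crem* values of 8.11, 8.24, 8.31, 8.42 and 8.54, and the KO mice 7.43, 7.69, 7.87, 8.07 and 8.17. The highest KO value, that of mouse 1, exceeded the lowest WT value, that of mouse 80, so the genotypes overlapped. At 12 h, the WT mice lay close together at 7.90, 7.93, 8.01, 8.01 and 8.02, and the KO mice stood at 7.39, 7.48, 7.64, 7.67 and 7.83. Here each KO mouse was below each WT mouse, as was the case, in either direction, for 2.42% of all probe sets. At 0 h the share of probe sets without overlap was 0.728%. The signal did not vanish: the lowest KO value was still above the median of every array. The sources used here do not state whether the probes of this set lie in the part of *Crem* that the allele removes, so the set checks the genotype labels only in so far as its signal was lower.

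The KO minus WT difference of *Crem* was -0.48 at 0 h and -0.37 at 12 h. Exact permutation tests over mice, two-sided, gave p = 0.016 at 0 h and p = 0.0079 at 12 h, the latter being the smallest p that 252 regroupings of 5 against 5 allow. Over both times the difference was -0.42 (SE 0.08, 95% confidence interval -0.59 to -0.25), a KO level of 0.745 of the WT level, with an exact p of 6.30e-05 for mice regrouped within each time. In the limma model over all 25689 probe sets, *Crem* ranked 6 by p-value, but its Benjamini-Hochberg adjusted p of 0.135 did not pass the threshold of 0.05. Without KO mouse 1 the difference was -0.46 and the adjusted p 0.0494, which did pass. The difference at 0 h was then -0.56 with an adjusted p of 0.525. Mouse 1 had the highest *Crem* value of the KO mice at 0 h, so leaving it out could only widen the difference. That pass is therefore no separate support, and it was the only 1 among 26 alternative analyses. In bulk liver, fewer cells of a type that expresses a gene and less RNA per cell cannot be told apart.

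**Figure D1:**
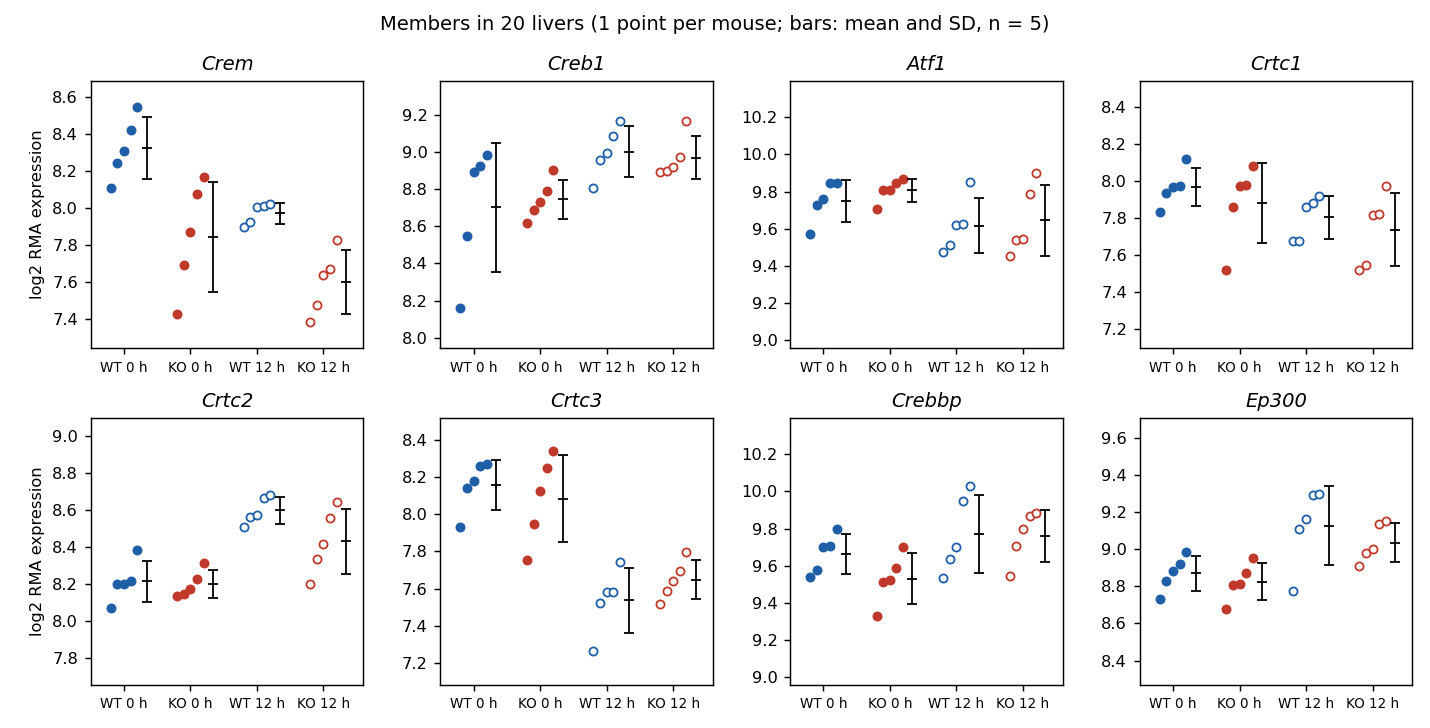
log2 RMA expression of the 8 genes (vertical axes, different offsets but the same length of scale) in 20 livers, with WT in blue, KO in red, 0 h filled and 12 h open; each point is 1 mouse and the bars give mean and SD (n = 5). *Crem* is the only gene whose KO mice lie below all WT mice at 12 h, and *Crem*, *Crtc2* and *Crtc3* separate the times in WT.

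None of the other genes passed the test for genotype. By limma with adjustment over all probe sets, 0 of 8 genes were called over both times (0.0117% of all probe sets were), 0 of 8 at 0 h (0% of all), 0 of 8 at 12 h (0.0234% of all) and 0 of 8 for the difference of the genotype effect between the times (0% of all). At an unadjusted p under 0.05, 1 gene, *Crem*, passed over both times and at 0 h, where 9.88% and 4.47% of all probe sets did. At 12 h 2 genes passed, *Crem* and *Crtc2*, against 12.5% of all, and 0 did for the difference between the times, against 6.84% of all. The median KO minus WT difference of the 8 genes was -0.07 over both times, beside a median of 0.00 over all probe sets.

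Among the factors, *Creb1*, which encodes the activator CREB, was level between the genotypes. At 0 h its values were 8.16, 8.55, 8.89, 8.92 and 8.99 in WT and 8.62, 8.69, 8.73, 8.79 and 8.90 in KO mice. At 12 h they were 8.81, 8.96, 8.99, 9.09 and 9.17 in WT and 8.89, 8.90, 8.92, 8.97 and 9.17 in KO mice. The KO mice fell inside the WT range at 0 h, where WT mouse 80 was lowest, and nearly so at 12 h. The difference over both times was 0.01 (SE 0.09, 95% interval -0.17 to 0.18, adjusted p = 0.992), which leaves room for a KO level of *Creb1* between 0.888 and 1.13 of the WT level. *Atf1*, whose product pairs with CREB, averaged 9.75 ± 0.11 in WT and 9.81 ± 0.06 in KO livers at 0 h, and 9.62 ± 0.15 in WT and 9.64 ± 0.19 in KO livers at 12 h (SD, n = 5). The values of single KO mice ran from 9.71 to 9.87 at 0 h and from 9.45 to 9.90 at 12 h, against 9.57 to 9.85 and 9.48 to 9.85 in WT mice, so the genotypes overlapped widely. At 0 h the difference of *Creb1* was 0.04 and that of *Atf1* 0.06, and at 12 h they were -0.03 and 0.03. Over both times *Atf1* differed by 0.04 (95% interval -0.09 to 0.17, adjusted p = 0.848), or a KO level between 0.941 and 1.13 of WT. Both intervals lay above that of *Crem*, whose KO level was between 0.662 and 0.838 of WT.

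The CRTC coactivators likewise did not pass for genotype over both times. *Crtc1*, best known from neurons, differed by -0.08 (95% interval -0.23 to 0.07, adjusted p = 0.745) and by -0.03 without KO mouse 1, with group means of 7.97 ± 0.10 in WT and 7.88 ± 0.22 in KO livers at 0 h and of 7.80 ± 0.12 and 7.74 ± 0.20 at 12 h. At 0 h the WT mice had *Crtc1* values of 7.83, 7.94, 7.97, 7.97 and 8.12 and the KO mice 7.52, 7.86, 7.97, 7.98 and 8.08. KO mouse 1 was lowest, and without it the difference at 0 h moved from -0.08 to 0.01. *Crtc3* differed by 0.02 (95% interval -0.13 to 0.17, adjusted p = 0.956), and by -0.00 without KO mouse 1. This was made up of -0.07 at 0 h and 0.11 at 12 h, and the change of 0.18 between the times did not pass (adjusted p = 0.841). *Crtc2*, whose product drives genes of gluconeogenesis in fasting liver, differed by -0.09 (95% interval -0.21 to 0.03, adjusted p = 0.598).

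Of the coactivators, *Crtc2* at 12 h was the only one with an unadjusted p under 0.05 for genotype. Its values were then 8.51, 8.56, 8.57, 8.66 and 8.68 in WT livers and 8.20, 8.33, 8.42, 8.56 and 8.64 in KO livers. Of the KO mice, 3 lay below all WT mice and 2 inside the WT range. The difference was -0.17 (95% interval -0.33 to -0.00, unadjusted p = 0.046), and its adjusted p of 0.390 did not pass. At 0 h the difference of *Crtc2* was -0.01, and the change of -0.15 in the genotype difference between the times had an adjusted p of 0.826.

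The genes of the acetyltransferases stood slightly lower in KO livers on average. *Crebbp* differed by -0.07 over both times (95% interval -0.21 to 0.07, adjusted p = 0.743), with 9.66 ± 0.11 in WT and 9.53 ± 0.14 in KO livers at 0 h and 9.77 ± 0.21 and 9.76 ± 0.14 at 12 h. The *Crebbp* values at 0 h were 9.54, 9.58, 9.70, 9.70 and 9.80 in WT and 9.33, 9.51, 9.52, 9.59 and 9.70 in KO mice. KO mice 76, 144 and 77 were below all WT mice and mice 1 and 143 among them, and the difference was -0.13, beside -0.01 at 12 h. *Ep300* also differed by -0.07 (95% interval -0.20 to 0.06, adjusted p = 0.731). These intervals allow KO levels between 0.863 and 1.05 of WT for *Crebbp* and between 0.871 and 1.04 for *Ep300*.

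**Figure D2:**
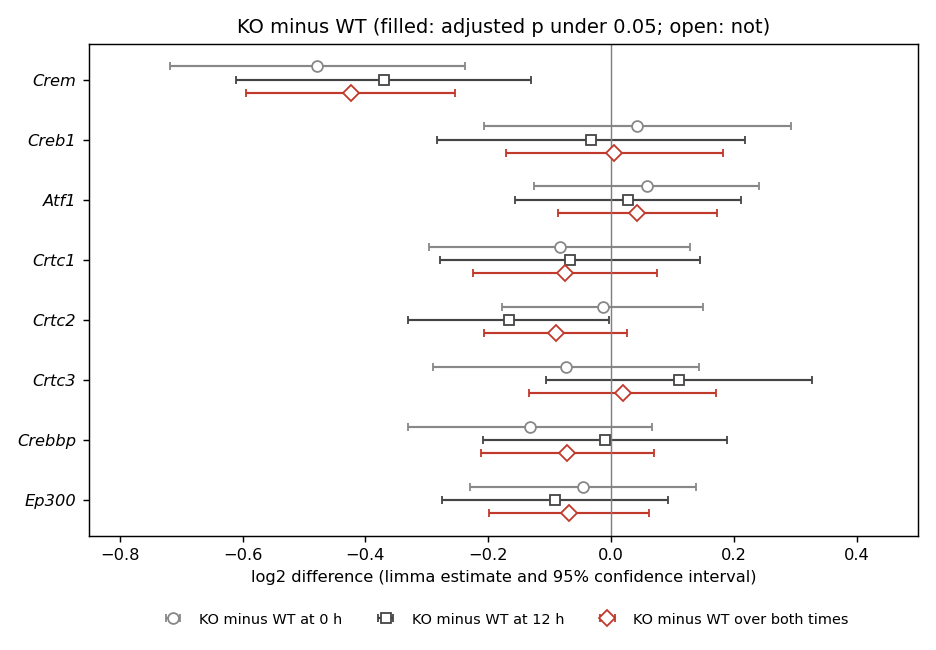
KO minus WT log2 difference of each gene (horizontal axis) at 0 h (circles), at 12 h (squares) and over both times (diamonds), with limma's 95% confidence interval; no symbol is filled, since no adjusted p was under 0.05. The intervals of *Crem* lie below 0 in all 3 comparisons, and of the other genes only that of *Crtc2* at 12 h ends below 0.

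Within batches, *Crem* was lower in KO than in WT livers each time, by values from -0.14 in batch 2 to -0.82 in batch 4, with -0.45 in batch 1, -0.63 in batch 3 and -0.37 in batch 5. Batches 1 to 4 rest on 1 or 2 mice per genotype, and batch 5 on 5 of each. The KO value of batch 2 is that of mouse 1 alone. With batch as a term in the model the *Crem* difference over both times was -0.44 (adjusted p = 0.068). *Crebbp* was also lower in KO livers in each of the 5 batches, by -0.25 to -0.01, and so was *Ep300*, by -0.15 to -0.01. Among all probe sets, 4.43% were lower in KO in every batch. The other genes had both signs: *Crtc3* ranged from -0.39 in batch 4 to 0.30 in batch 1, *Crtc1* from -0.45 in batch 2 to 0.06 in batch 1, *Crtc2* from -0.24 to 0.17, *Creb1* from -0.11 to 0.16 and *Atf1* from -0.14 to 0.14.

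**Figure D3:**
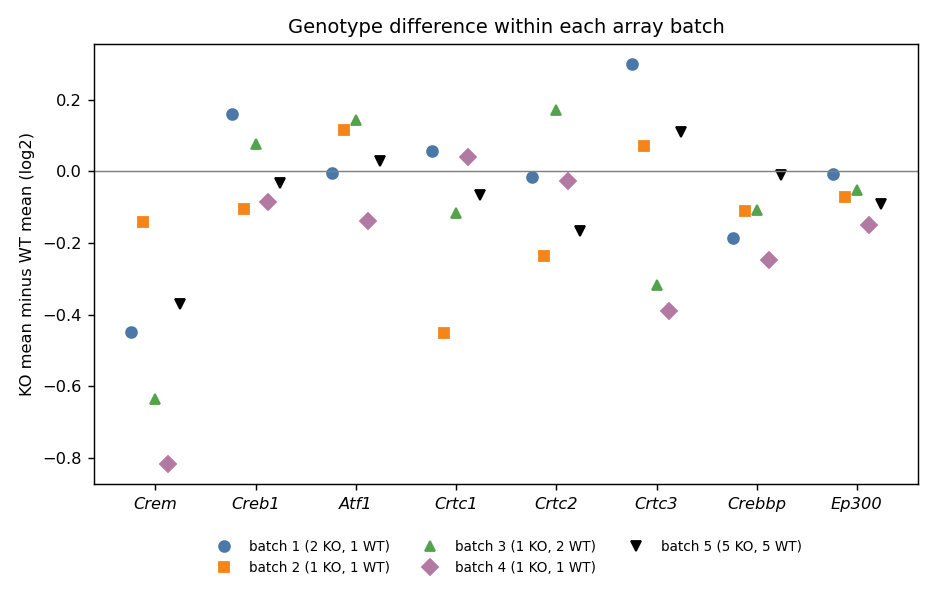
KO mean minus WT mean (log2, vertical axis) of each gene within each of the 5 array batches, with 1 symbol per batch and the number of mice in the legend. *Crem* lies below 0 in all 5 batches, between -0.82 and -0.14, and *Crebbp* and *Ep300* do so with smaller differences, while the other genes have batches above and below 0.

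Between the times, several of the genes passed. In WT livers 4 of the 8 genes passed between 0 h and 12 h, *Crtc2* and *Ep300* higher and *Crem* and *Crtc3* lower at 12 h, where 27.8% of all probe sets passed. In KO livers *Crtc2* and *Crtc3* passed in the same directions, where 20.3% of all did. At an unadjusted p under 0.05 there were 5 genes in either genotype, where 39.5% of all probe sets passed in WT and 32.8% in KO livers. In WT livers the 5 and 5 mice did not overlap for *Crtc2*, *Crtc3* and *Crem* (17.5% of all probe sets), and in KO livers 0 of the 8 genes were without overlap (16.4% of all). Both times were compared across batches, so none of these differences can be told apart from batch 5.

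*Crtc3* had the largest difference of the group. WT mice had values of 7.93, 8.14, 8.18, 8.26 and 8.27 at 0 h and of 7.26, 7.52, 7.58, 7.58 and 7.74 at 12 h. KO mice had 7.76, 7.95, 8.13, 8.25 and 8.34 at 0 h and 7.52, 7.59, 7.64, 7.69 and 7.80 at 12 h. All WT mice at 12 h were below all at 0 h, and among KO mice only mouse 109 at 12 h reached the lowest value at 0 h, that of mouse 76. *Crtc3* fell by 0.62 in WT (SE 0.10, adjusted p = 1.39e-04), to 0.650 of its level at 0 h, and by 0.44 in KO livers (SE 0.10, adjusted p = 0.0042), to 0.739.

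*Crtc2* went the other way. At 0 h its values were 8.07, 8.20, 8.20, 8.21 and 8.38 in WT and 8.13, 8.15, 8.17, 8.23 and 8.31 in KO mice, so that at that time the genotypes were intermingled. Set against the values at 12 h given above, *Crtc2* rose by 0.38 in WT livers (SE 0.08, adjusted p = 0.0011), or 1.30-fold, without overlap. In KO livers it rose by 0.23 (SE 0.08, adjusted p = 0.042), or 1.17-fold, with KO mouse 166 at 12 h, at 8.20, inside the 0 h range. This call in KO livers was lost, with adjusted p-values up to 0.126, in 11 of 27 alternative analyses, among them those without KO mice 1, 77, 143 or 76 at 0 h, without WT mouse 147 at 0 h and without KO mice 18, 55 or 109 at 12 h.

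*Crem* itself was lower at 12 h in WT livers, by -0.35 (SE 0.12, 95% interval -0.59 to -0.11, adjusted p = 0.027). In KO livers the difference was -0.24 with an adjusted p of 0.146, and the effect of genotype on it was 0.11 (95% interval -0.23 to 0.45, adjusted p = 0.931). Without KO mouse 1 the limma difference in KO livers was -0.16 (adjusted p = 0.354). The call in WT was lost when each array was centred on its own median (-0.26, adjusted p = 0.106) and without WT mice 145 or 146 at 0 h or 168 or 170 at 12 h.

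*Ep300* had values of 8.73, 8.83, 8.88, 8.92 and 8.99 at 0 h and of 8.78, 9.11, 9.16, 9.29 and 9.30 at 12 h in WT livers. At 12 h, 4 of the 5 mice were above all mice at 0 h, and WT mouse 167 was not. The rise was 0.26 (SE 0.09, adjusted p = 0.034), and it did not pass in 9 of 27 alternatives, including quantile normalization (0.17, adjusted p = 0.156) and leaving out WT mice 78, 80 or 147 at 0 h or 111, 168, 169 or 170 at 12 h. In KO livers, *Ep300* stood at 8.68, 8.81, 8.81, 8.87 and 8.95 at 0 h and between 8.91 and 9.15 at 12 h, a difference of 0.21 with an adjusted p of 0.099. *Crebbp* differed by 0.11 in WT (adjusted p = 0.431) and by 0.23 in KO livers (adjusted p = 0.099).

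*Creb1*, *Atf1* and *Crtc1* did not pass for time in either genotype. *Creb1* came closest, with 0.30 in WT (95% interval 0.05 to 0.55, adjusted p = 0.067) and 0.22 in KO livers (adjusted p = 0.203). Without WT mouse 80, whose *Creb1* value at 0 h was the lowest, the WT difference was 0.16. *Atf1* differed by -0.13 in WT and -0.16 in KO livers, and *Crtc1* by -0.16 and -0.14.

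The means of the 4 batches of 0 h livers are given as a description beside that of batch 5. Each is over 2 or 3 mice with unequal numbers of WT and KO mice, so that their spread holds differences between mice and genotypes as well as between batches. For *Crtc3* the means of these batches spread over 0.26, and the mean of batch 5, 7.59, lay below the lowest of them, 7.95. For *Crtc2* they spread over 0.08, and batch 5, at 8.51, lay above the highest, 8.27. For *Crem* the spread of 0.40 was accompanied by a mean of batch 5 of 7.79, just below the lowest 0 h batch at 7.84. *Crtc1* was the only gene whose mean in batch 5 was inside the range of the 0 h batches.

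**Figure D4:**
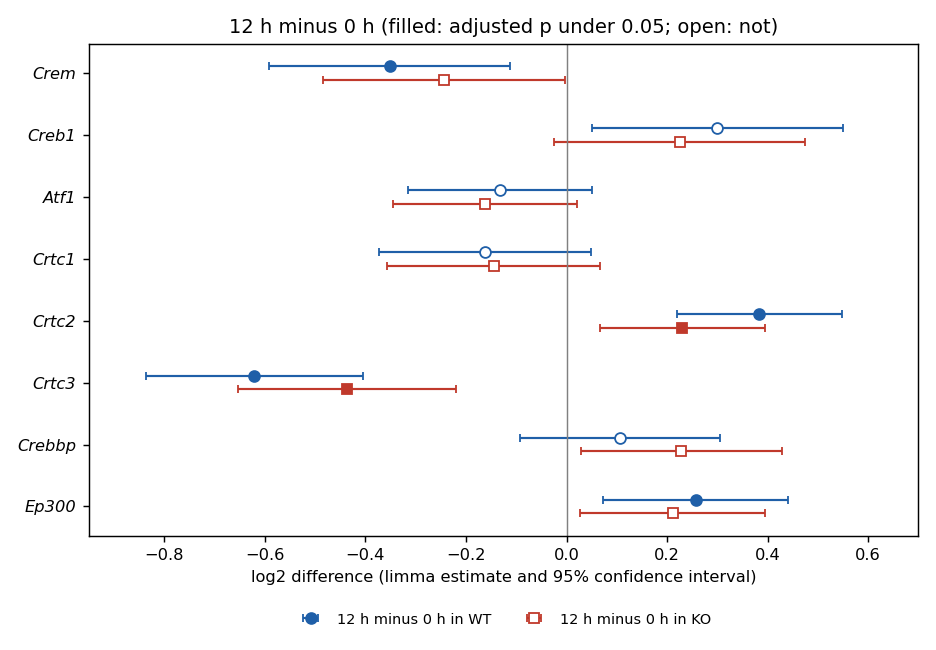
Difference between 12 h and 0 h (log2, horizontal axis) of each gene in WT (circles) and KO livers (squares), with limma's 95% confidence interval, filled where the adjusted p was under 0.05. *Crtc3* and *Crtc2* are filled in both genotypes, on opposite sides of 0, and *Crem* and *Ep300* are filled in WT and open in KO livers, where their differences were -0.24 and 0.21.

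Markers of Kupffer cells, the macrophages of the liver, moved with time as well. The 6 genes averaged 9.31 to 9.68 in WT livers at 0 h and 8.80 to 9.24 at 12 h, without overlap, and in KO livers 9.16 to 9.65 and 8.94 to 9.33. As lower at 12 h, 4 of the 6 passed in WT and 2 in KO livers, beside 3682 and 2489 of all 25689 probe sets. Of single probe sets, 17.5% were without overlap in WT, in either direction. The marker differences between times cannot be told apart from batch 5 either. Cholangiocyte markers (4 of 5 measured) averaged 7.44 to 7.87 at 0 h and 7.23 to 7.47 at 12 h in WT livers, and those of pancreatic acinar cells (2 of 4 measured) 6.73 to 7.28 and 6.43 to 6.77. Markers of sinusoidal endothelium (6 genes) averaged 9.74 to 9.93 and 9.72 to 10.11, and those of stellate cells (6 genes) 8.87 to 9.05 and 8.95 to 9.05. The part of these cells in the differences of *Crem*, *Crtc2*, *Crtc3* and *Ep300* was not tested. For KO minus WT over both times, 0 of 41 marker genes passed by limma and 8 had an unadjusted p under 0.05, beside 9.88% of all probe sets. The median difference was -0.13 for markers of sinusoidal endothelium, -0.06 for stellate cells, -0.01 for Kupffer cells and 0.13 for neutrophils, and the part of these cells in the *Crem* difference was not tested.

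The levels of the 4 groups can be placed in order for each gene. *Crem* was highest in WT at 0 h, followed by WT at 12 h, KO at 0 h and KO at 12 h, with steps of 0.35, 0.13 and 0.24. Only the first step exceeded the largest SD within a group, 0.30. For *Crtc3* the order was WT at 0 h, KO at 0 h, KO at 12 h and WT at 12 h, and only the step of 0.44 between the times exceeded the largest SD, 0.23. For *Crtc2*, which was highest in WT at 12 h and then in KO at 12 h, only the step of 0.22 from KO at 12 h to WT at 0 h did so (largest SD 0.17). For *Creb1*, *Atf1*, *Crtc1*, *Crebbp* and *Ep300* no neighbours in the order differed by more than the largest SD.

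Genes around these factors were described in 5 lists covering the kinases of CREB, the regulators of CRTC proteins, other bZIP factors that bind CRE sites, partner coactivators and cyclic AMP targets of liver. Of their 78 measured genes 0 passed for genotype by limma at either time, over both times or between them. At an unadjusted p under 0.05 there were 7 over both times (9.88% of all probe sets), 4 at 0 h (4.47%), 9 at 12 h (12.5%) and 4 for the difference between the times (6.84%). The 18 cyclic AMP targets held 3, 2, 5 and 2 of them, and whether they differ in this from the other lists was not tested. The 5 targets at 12 h had both signs, with *Ppargc1a* at -0.37, *Per1* at -0.31, *Tat* at -0.24, *Id1* at 0.21 and *Fos* at 0.34. The medians of KO minus WT over both times were 0.01 for 15 measured kinase genes, -0.02 for 17 CRTC regulators, 0.02 for 14 bZIP factors, -0.05 for 14 partner coactivators and -0.01 for 18 targets, beside 0.00 for all probe sets.

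For time, genes on both arms that act on CREB and CRTC proteins passed. Of the 15 kinase genes 5 were higher and 1 was lower at 12 h in WT, with a median of 0.09 beside -0.03 for all probe sets, and 3 were higher in KO livers. Of all probe sets, 27.8% passed in WT and 20.3% in KO livers, against which the counts of each list are to be read. *Prkacb*, a catalytic subunit of protein kinase A, rose by 0.70 in both genotypes (adjusted p = 4.48e-07 in WT and 5.44e-07 in KO). *Rps6ka5*, which encodes the CREB kinase MSK1, rose by 0.49 in WT and 0.47 in KO livers. *Camk2b*, a calcium-dependent kinase gene, rose by 0.66 in WT, and *Pkig*, which encodes an inhibitor of protein kinase A, fell by 0.27.

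Of the 17 CRTC regulators 6 were higher and 2 lower in WT (median 0.17), and 7 were higher and 1 lower in KO livers (median 0.15). The calcineurin genes *Ppp3ca* and *Ppp3cc* rose by 0.66 and 0.54 in WT and by 0.63 and 0.50 in KO livers. *Sik1*, a salt-inducible kinase that keeps CRTC proteins out of the nucleus and is itself a CREB target, rose by 0.55 in WT (adjusted p = 0.0074), with a difference of 0.36 in KO livers (adjusted p = 0.084). *Ywhaq*, a 14-3-3 protein of the family that holds phosphorylated CRTC proteins in the cytoplasm, fell by 0.60 in WT and by 0.39 in KO livers, and *Ywhaz*, of the same family, fell by 0.22 in WT.

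Of the 14 other bZIP factors 5 were higher and 4 lower in WT, and 3 and 2 in KO livers. *Atf4* and *Atf5*, factors of the stress response, fell by 0.41 and 0.58 in WT, and *Creb3l1* by 0.47. *Crebrf* rose by 0.64, *Atf7* by 0.36 and *Atf2* by 0.32. Of the 14 partner coactivators 5 were higher and 2 lower in WT and as many in KO livers, and 4 of the higher and 1 of the lower genes were the same. *Ncoa1*, *Ncoa2* and *Taf4b* rose by 0.32, 0.31 and 0.37 in WT, whereas *Cited2* and *Cited4*, whose products bind CBP and p300, fell by 0.60 and 0.43.

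Among the 18 cyclic AMP targets 5 were higher and 3 lower in WT (median -0.00), and 3 were higher and 3 lower in KO livers (median -0.03). The 3 genes whose promoter stretches are printed above had the largest rises in WT. They were picked by name from a list chosen with earlier results known, and other targets with a core are not printed. Whether a CRE or core goes with the size of a change was not tested. *Per1*, a clock gene, rose by 2.02 in WT (adjusted p = 7.70e-10) and 1.86 in KO livers (adjusted p = 2.69e-09). *Pck1*, which encodes the enzyme at the entry to gluconeogenesis, rose by 1.26 and 1.42, and *Dusp1*, a phosphatase gene, by 1.16 and 0.85. *Fos* fell by 0.53 and *Irs2*, which encodes a relay of insulin signalling, by 0.41 in WT, and *Fosb* by 0.26.

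**Figure D5:**
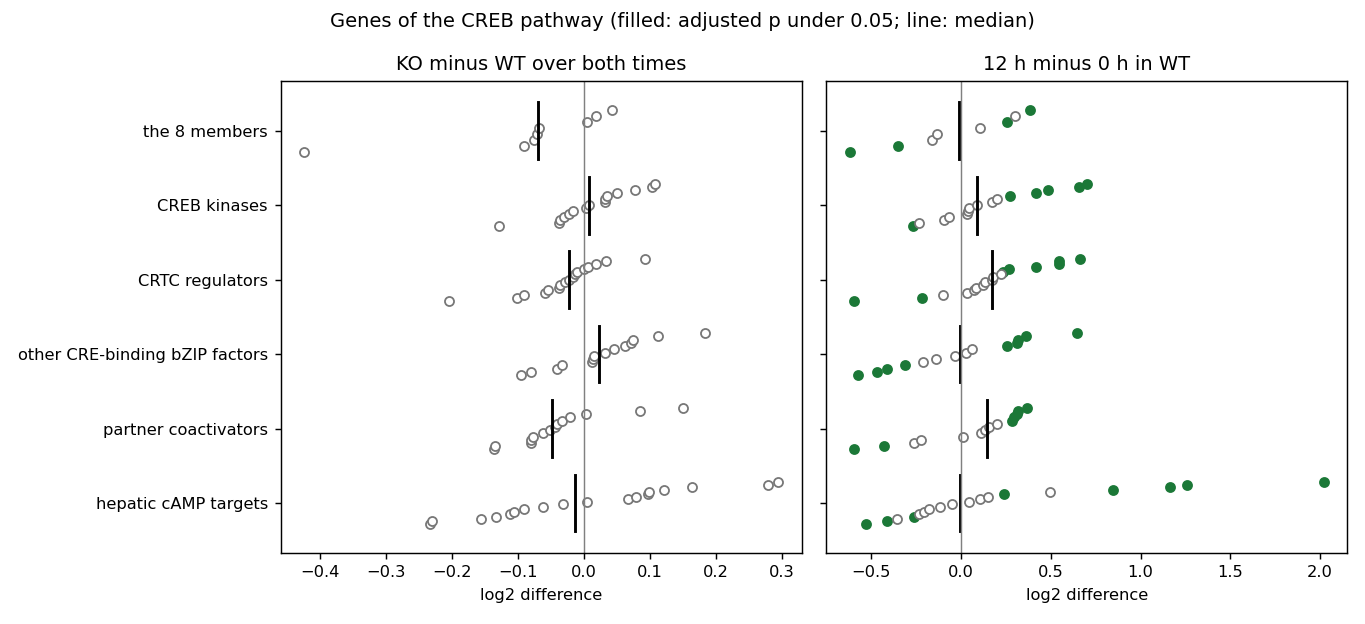
log2 differences (horizontal axes) of the 8 genes and of the 5 lists, KO minus WT over both times on the left and 12 h minus 0 h in WT on the right; each point is 1 gene, filled where its adjusted p was under 0.05, and the vertical bars are medians. No point is filled on the left, where *Crem* at -0.42 lies farthest from 0, and on the right the highest point is *Per1* at 2.02.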

How the data were processed

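The values deposited by the authors are on the log2 scale, 1 per probe set and array, and the submitters' processing notes name RMA without a version. They already include background correction and scaling, so the signal of single probes over background was not assessed, and precision is set by the number of arrays. Of 35557 probe sets, 9868 without a value were left out, and 25689 were tested without a further filter. Probe sets were named from the platform annotation joined to RefSeq (0 symbols changed): 20777 had 1 gene, 232 several and 4680 none.

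Groups followed the labelled genotype and time. limma 3.58.1 in R 4.3.3 (lmFit, eBayes) fitted 4 group means over all 20 arrays, with Benjamini-Hochberg adjustment over 25689 probe sets, a threshold of 0.05 and 95% confidence intervals. The model was tested on simulated data. *Crem* was also tested by exact permutation over mice. All members were named, and from each list up to 3 genes per direction with the largest change among those passing for time in WT. Members and lists were chosen with earlier results of these data known. The alternatives were batch as a fixed or random block, the compared arrays alone, bright probe sets alone, quantile normalization, median centring, array weights, a robust prior with an intensity trend, and runs without each array in turn.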

Additional observations from a re-analysis of the deposited data

How the results depend on the processing

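Each result was recomputed under 6 or 7 other settings, of 8 in all, and in 20 runs that each left out 1 array. The number of genes called for genotype was 0 at 0 h, at 12 h and for the difference between the times in all of these runs. Over both times it was 0 under the other settings and 0 to 1 with an array left out, the call being *Crem* without KO mouse 1. The *Crem* difference over both times ranged from -0.46 to -0.37 (adjusted p 0.049 to 0.228). For time in WT, 3 to 5 genes were called under the other settings and 2 to 5 with an array left out, 2 without WT mouse 168 or 170. For time in KO livers, 1 gene, *Crtc3*, was called in place of 2 with batch as a random block (correlation 0.029), with only the arrays compared and with quantile normalization, and 1 to 3 with an array left out, 1 without KO mice 1, 77 or 143 or WT mouse 147 at 0 h or without KO mice 18, 55 or 109 at 12 h. *Crtc3* was called for time in both genotypes in 27 of 27 alternatives and *Crtc2* in WT in 27 of 27. *Creb1* was called for time in WT in 6 of 27, among them median centring (0.39, adjusted p = 0.026). No called value changed its sign. Of the values that were not called over both times, *Creb1* changed sign in 10 and *Crtc3* in 6 of 26 alternatives. Centring each array moved the median time difference of all probe sets from -0.03 to 0.06 in WT and from -0.02 to 0.04 in KO livers. With it, 5294 probe sets were called higher and 1995 lower in WT, instead of 3462 and 3682. In KO livers 3676 were higher and 1603 lower, instead of 2722 and 2489. Centring adds the same amount to the time difference of every probe set within a genotype. Why the array medians differed between the times was not tested. With batch as a fixed block the time difference could not be fitted. No paired analysis was possible because no mouse number occurs in more than 1 group.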

Other observations

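The genes of the acetyltransferases varied together from mouse to mouse. Over the deviations of 20 mice from their group means, *Crebbp* and *Ep300* had a Pearson's r of 0.874 and a Spearman's rho of 0.893, each with a permutation p of 1.00e-05, the smallest that 100000 resamples within groups can give. After adjustment over all 28 pairs of the 8 genes the p was 2.80e-04 for both, and this was 1 pair of 28 that passed. Without the 2 mice farthest from the median of *Crebbp*, r was 0.854. It was 0.870 over the 10 mice of 0 h and 0.879 over the 10 of 12 h, which were all in batch 5. The pair was singled out after its value was seen, and what the mice share in their arrays or RNA was not tested. How often other pairs of probe sets reach such an r was not computed, so the value cannot be read as particular to this pair.

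Whether mice with more *Crem* signal also had more or less of the other genes was described with the deviations of the 20 mice from their group means, for 7 relations. For *Crtc1* the relation was negative (Pearson's r = -0.53, permutation p = 0.055 and Spearman's rho = -0.49, permutation p = 0.059), and for *Crtc3* positive (r = 0.52, permutation p = 0.059 and rho = 0.44, permutation p = 0.095). Adjusted over the 7 relations, p was 0.207 for both r and 0.334 for both rho, so neither relation passed the correction. Without the 2 mice farthest from the median of *Crem*, r was -0.45 for *Crtc1* and 0.50 for *Crtc3*. For *Creb1*, *Atf1*, *Crtc2*, *Crebbp* and *Ep300* r over all 20 mice lay between -0.17 and 0.15. The relations differed between the times (10 mice each), which was not tested. With *Crebbp* r was 0.71 at 0 h and -0.63 at 12 h, and with *Ep300* 0.72 and -0.42. It was -0.40 and 0.08 for *Crtc2*, 0.67 and 0.18 for *Crtc3* and -0.50 and -0.66 for *Crtc1*. For *Creb1* it was 0.18 and -0.11, and for *Atf1* 0.16 and -0.12.

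The genes whose log2 values were most like those of *Crem* over the 20 arrays were *Rae1* (r = 0.791), *Acbd6* (r = 0.776) and *Blmh* (r = 0.747). Over the deviations from the group means they were *Steap2* (r = 0.810), *Srpk1* (r = 0.809) and *Saa3* (r = 0.786). These values come from the same 20 arrays and were picked as the highest of all genes, so they are a description and carry no test.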
